A study of Mus musculus with 6 samples.

Results

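The chemokine ligand family was examined in the lung transcriptome of Zpbp2 knockout and control mice. Its members were the genes whose symbol begins with Ccl, Cxcl, Xcl or Cx3cl followed by a number, which gave 43 of the 41388 genes in the count table. They carried 41 distinct symbols, because Ccl21c stands for 3 gene identifiers. The WT lungs came from adult C57BL/6J mice, and the KO lungs from adult mice of the strain B6.129S7-Zpbp2tmZuk/Mmjax, a single germline line on the C57BL/6J background that lacks the 5′ end of Zpbp2 (exons 1 to 3) in every cell. No agent was given, and every lung was taken at Zeitgeber time 7 (ZT7), 7 h after lights on. The sex of each mouse is not given in the sources used here. Each genotype had 3 libraries (numbered WT1 to WT3 and KO1 to KO3). The study asked how the Zpbp2 region bears on gene expression and the circadian clock.

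Chemokines are small secreted proteins that guide leukocytes by binding G protein-coupled receptors on their surface, and their names follow the spacing of the first cysteines (CC, CXC, XC and CX3C). In lung, one group is made steadily by epithelium, stroma and endothelium, while the inflammatory ligands are induced in macrophages and epithelium after infection or injury, in large part through the transcription factor NF-kB. Neutrophils follow ligands of the receptor CXCR2, monocytes those of CCR2, eosinophils the eotaxins, and activated T and NK cells those of CXCR3.

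The promoters of several CXCR2 ligands hold the letters of an NF-kB motif. The 250 bases upstream of the start site are shown for Cxcl1, Cxcl2 and Cxcl3, which attract neutrophils and lie in 1 cluster, with the match to the NF-kB motif in capitals. The sequences are from RefSeq, build GRCm38.p6, and are read 5′ to 3′ on the gene's strand: chr5:90890995-90891244 for Cxcl1, chr5:90903649-90903898 for Cxcl2 and chr5:90785851-90786100 for Cxcl3, each on the plus strand.
Cxcl1: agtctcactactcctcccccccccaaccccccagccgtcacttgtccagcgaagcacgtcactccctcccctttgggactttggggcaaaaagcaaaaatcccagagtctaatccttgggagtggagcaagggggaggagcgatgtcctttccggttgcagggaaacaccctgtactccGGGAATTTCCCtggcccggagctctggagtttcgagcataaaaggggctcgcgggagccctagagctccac
Cxcl2: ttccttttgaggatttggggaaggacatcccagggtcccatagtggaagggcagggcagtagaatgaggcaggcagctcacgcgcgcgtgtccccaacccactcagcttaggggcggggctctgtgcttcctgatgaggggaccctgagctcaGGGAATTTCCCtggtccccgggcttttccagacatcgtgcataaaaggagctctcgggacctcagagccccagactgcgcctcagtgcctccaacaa
Cxcl3: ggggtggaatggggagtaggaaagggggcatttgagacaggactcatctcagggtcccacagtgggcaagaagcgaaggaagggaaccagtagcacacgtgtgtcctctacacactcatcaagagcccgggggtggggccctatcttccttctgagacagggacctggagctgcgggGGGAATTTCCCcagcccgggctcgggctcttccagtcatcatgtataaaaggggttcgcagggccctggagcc
All 3 promoters held the same run of 11 bases, GGGAATTTCCC, which began 71, 97 and 73 bases before the start site of Cxcl1, Cxcl2 and Cxcl3.

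The promoter of Ccl3 is shown because Ccl3 had the largest fold change of the family. Ccl3 attracts macrophages, monocytes and NK cells as an inflammatory CC ligand. These are the bases of chr11:83649379-83649628, read on the minus strand, with the match to AGGTCA in capitals, the core letters of sites for nuclear receptors of the REV-ERB and ROR families.
Ccl3: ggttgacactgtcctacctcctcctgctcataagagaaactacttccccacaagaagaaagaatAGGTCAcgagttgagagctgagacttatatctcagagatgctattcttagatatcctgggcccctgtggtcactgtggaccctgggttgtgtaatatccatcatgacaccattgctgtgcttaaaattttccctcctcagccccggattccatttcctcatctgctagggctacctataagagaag
The NF-kB motif had no match in this window, and AGGTCA began 186 bases before the start site.

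Windows of 300 bases, from 250 before to 50 after the start site, were searched on both strands for 27 of the 41 member symbols, which had 33 windows between them. The NF-kB motif had a match in 8 of the 33 windows (24.2%), against 8.46% of all 32851 windows in the same table. Those 8 belonged to Ccl1, Ccl9, Ccl20, Ccl27a, Cxcl1, Cxcl2, Cxcl3 and Cxcl10. No window was available for Ccl2, Ccl4, Ccl5, Ccl7, Ccl11, Ccl21c, Ccl24, Ccl26, Cxcl5, Cxcl11, Cxcl16, Cxcl17, Ccl19-ps1 and Ccl19-ps3, which were not searched. The AP-1 motif TGANTCA was in 7 windows (21.2%, against 7.81%), AGGTCA in 12 (36.4%, against 16.3%) and the E-box CACGTG in 1 (3.03%, against 7.15%). Windows of a gene can overlap, and near-identical gene copies can count the same sequence again. Ccl27a and Ccl27b did so with AGGTCA and with the AP-1 run TGACTCA. A match describes letters and not a bound site.

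Certain members have copies that share nearly all their sequence. The part of the coding sequence that holds the first difference between Ccl21a and Ccl21b is shown, positions 54 to 114 counted from the A of the start codon of Ccl21b, with the base that differs in capitals. Both encode the ligand of CCR7 that draws T cells and dendritic cells into lymphatics and lymph nodes.
Ccl21a: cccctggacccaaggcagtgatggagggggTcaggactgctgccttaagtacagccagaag
Ccl21b: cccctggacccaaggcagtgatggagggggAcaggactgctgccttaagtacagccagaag
Over the 402 bases of the Ccl21b coding sequence, Ccl21a differed at 2 positions, A84T and T194C (the Ccl21b base first). Gm10591, Gm13304 and Gm21541 differed from it at 0. Of all windows of 50 bases in the Ccl21a transcript, 71.6% also occurred in another gene, and for Ccl21b it was 100%. Ccl21a had 1 count, in KO2, and Ccl21b and the 3 Ccl21c identifiers had 0 in every library. A read from the shared bases has more than 1 possible source, so 0 here does not show that the ligand was absent.

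Of the 43 members, 32 passed the filter on low counts and were tested, and all 32 were protein-coding genes. The 11 others comprised 6 with 0 counts in all libraries (Ccl21b, the 3 Ccl21c identifiers, Ccl27b and Ccl19-ps3) and 5 with at most 9 counts in a library (Ccl1, Ccl26, Cxcl11, Ccl19-ps1 and Ccl21a). At these depths 3 counts, the limit that a count of 0 allows, stand for 0.041 to 0.0514 CPM (the count in 1e6 of the scaled library size), which covers counting error only. Ccl27b shared 98.1% of its 50-base windows with other genes and Ccl19-ps3 shared 100%. Among the tested members, Ccl27a (69.2%), Ccl19 (59.1%), Cxcl16 (19%) and Xcl1 (10.8%) shared the most, so their counts are less certain, while Ccl3, Ccl24, Cxcl1, Ccl5 and Ccl11 shared 0%.

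Several facts about the libraries bear on what follows. Total counts were 59134950 to 71354388. KO2 and KO3 differed by little more than counting noise, with a median variance 1.71 to 1.93 times that of counting below 20000 counts a gene pair, where KO1 and KO2 reached 21. The study describes them as separate mice, and their sample labels differ. Here their counts were nevertheless summed and taken as 1 sample, which leaves 3 WT samples and 2 KO samples (n in each mean ± SD), and the fit with 6 separate libraries is given beside it. Zpbp2 had 20, 15 and 7 counts in the WT libraries and 1, 0 and 0 in the KO libraries. Lung markers were high in every library, with 7 alveolar type 2 genes summing to 20831 CPM or more. The libraries also held other tissue or cells in unequal amounts. Squamous epithelium genes summed to 4648 CPM in WT3 and 8902 in KO1 and to at most 22.4 CPM in the others. The sum of erythroid genes was 19003 CPM in KO2 and 19740 CPM in KO3, against 2403 to 5515 in the other libraries, and that of adipocyte genes was 510 to 809 CPM in WT against 58.6 to 146 in KO. Cardiomyocyte genes summed to 6534, 2764 and 2278 CPM in WT1 to WT3 and to 1140 to 1311 CPM in KO, and all 7 had every KO library below every WT library (20.8% of all genes did). KO2 (44.4 CPM) and KO3 (44.3 CPM) also stood above the others (2.93 to 6.42 CPM) in the sum of liver genes. The part of these tissues in the member values was not tested, apart from the fit with a squamous epithelium term. Since whole lung was sequenced, fewer cells of a type and less RNA per cell cannot be told apart in any result.

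No chemokine ligand gene passed the test between genotypes. With edgeR's quasi-likelihood test and Benjamini-Hochberg adjustment over all genes, 0 of the 32 members had an adjusted p of at most 0.05, against 426 of 18660 genes tested (2.28%). Member adjusted p values ran from 0.0659 for Ccl24 to 0.967 for Ccl28. An unadjusted p of 0.05 or less was reached by 6 members (18.8%), Ccl24, Cxcl16, Ccl3, Cxcl15, Cxcl1 and Ccl5, against 27.3% of all genes. With the 6 libraries kept separate, edgeR called 5 of 32 (15.6%), Ccl3, Ccl24, Cxcl1, Cxcl15 and Cxcl16, against 18.9% of the 18014 genes tested there. DESeq2, with KO2 and KO3 summed, called 4 of the 31 members to which it gave an adjusted p (12.9%), namely Ccl3, Ccl24, Cxcl15 and Cxcl16, against 22.9% of 17124 genes. The share of members was under the share of all genes in each of these comparisons. With a term for the squamous epithelium genes described above, edgeR called 4 of 32 (12.5%), Ccl3, Ccl24, Cxcl16 and Cxcl17, against 12% of 18660 genes, and with a replicate block on 6 libraries it called Cxcl16, against 6.42% of 18014 genes. The remaining alternatives, among them every fit that left out a library, called 0.

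By their estimates the members were divided in direction. There were 17 members higher and 15 lower in KO, with a median log2 fold change (logFC) of 0.13, beside 0.02 over all genes. At 1811 bases, the median exon length of the members was shorter than the 3785.5 of all genes, and fold changes declined with exon length over all genes (Spearman rho of -0.334 across 18524 genes, which are not independent). With an offset for gene length and GC content the member median was 0.02, beside 0.01 over all genes. A difference of at least 2-fold was estimated for 4 members, Ccl3, Cxcl2, Ccl24 and Cxcl9, which is 12.5% of those tested, beside 5.47% of all genes. In 8 members (25%) every KO library lay above every WT library, against 20% of all genes, and in 6 (18.8%) every KO library lay below every WT library, against 20.8%. The 8 were Ccl3, Ccl7, Cxcl1, Cx3cl1, Cxcl15, Cxcl16, Ccl20 and Ccl27a, and the 6 were Ccl5, Cxcl9, Ccl11, Ccl24, Xcl1 and Ccl8. The sign of the logFC turned in at least 1 of the 17 alternatives for 11 of the 32 members, of which only Ccl27a was among those that did not overlap.

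**Figure D1:**
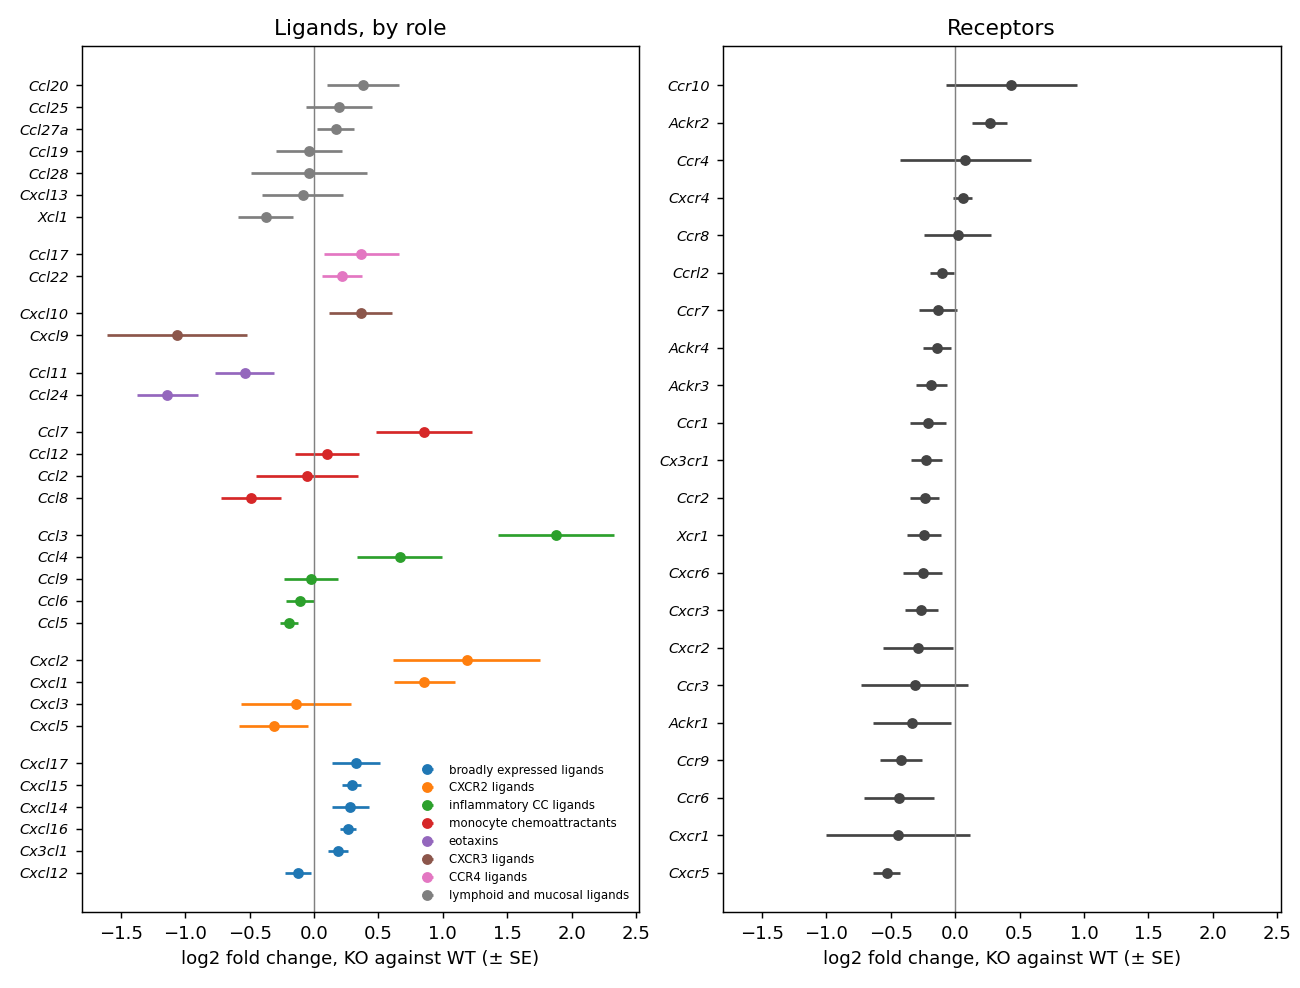
Log2 fold change (logFC) of KO against WT with its standard error (horizontal axis) for the 32 tested chemokine ligand genes grouped by role (left) and for the 22 tested chemokine receptor genes (right), from edgeR with WT n = 3 and KO n = 2. The ligands lie on both sides of 0, from -1.14 for Ccl24 to 1.88 for Ccl3, and 17 of the 22 receptors lie below 0.

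The steady ligands of lung dominated the family. All members together summed to 1833 to 1907 CPM in WT, against 2054 to 2236 CPM in KO, and the 12 most abundant held 98.3% of the family's CPM. Cxcl15 (lungkine), a neutrophil attractant of lung epithelium, alone made up 57.8% to 64.2% of the sum. Per kilobase of exon, the WT level was 523 ± 18.7 CPM per kb for Cxcl15 (SD, n = 3), followed by 57.5 ± 9.32 for Cxcl14, 48.4 ± 5.27 for Ccl6, 44.1 ± 4.07 for Cxcl17 and 34.5 ± 2.91 for Cxcl12. The WT libraries of Cxcl14 and Ccl6 overlapped on this scale, as did those of Ccl6 and Cxcl17, while Cxcl15 stood clear of Cxcl14 and Cxcl17 of Cxcl12. Ccl5, Cxcl16 and Cx3cl1 came next at 24.2 ± 1.29, 23.7 ± 0.914 and 21.5 ± 0.825 CPM per kb in WT, and Ccl5 and Cxcl16 overlapped. Every other tested member averaged below 10 CPM per kb in WT, down to 0.0487 ± 0.0171 for Cxcl3, and most neighbours in that lower order overlapped.

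**Figure D2:**
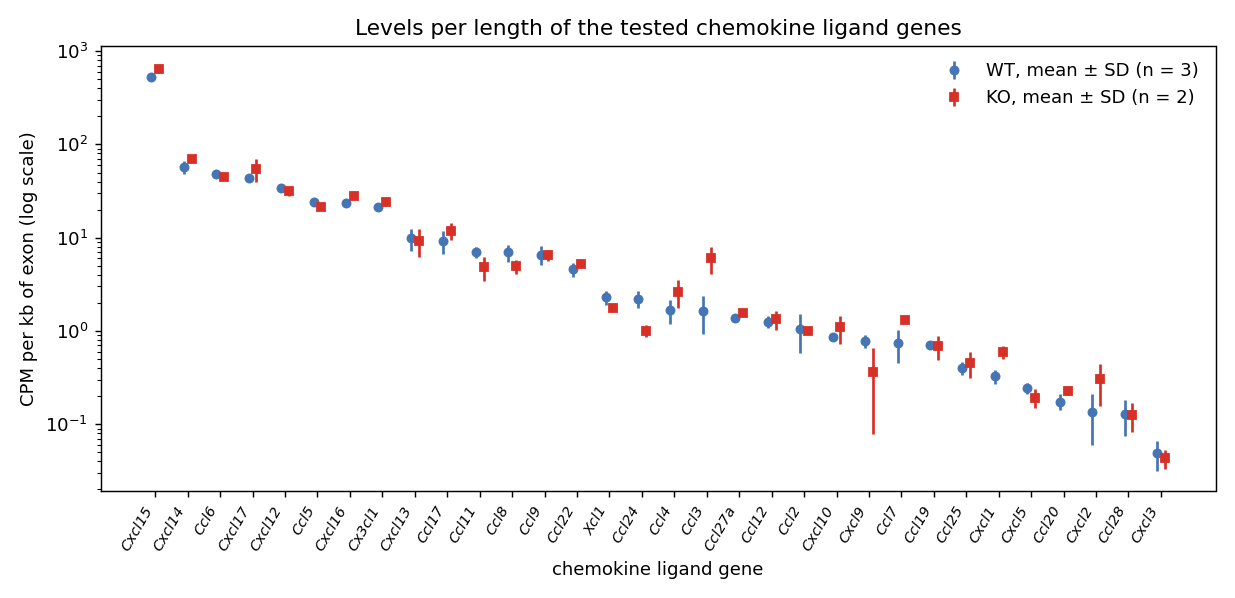
Level per kilobase of exon (vertical axis, CPM per kb, log scale) of the 32 tested chemokine ligand genes, ordered by their WT mean, with circles for the WT mean (n = 3), squares for the KO mean (n = 2, KO2 and KO3 averaged) and bars for the SD. Cxcl15 stands at 523 CPM per kb in WT, about an order of magnitude above Cxcl14 at 57.5, and Cxcl3 is lowest at 0.0487.

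Cxcl15 was at 1079, 1156 and 1103 CPM in WT1 to WT3 and at 1436, 1272 and 1290 CPM in KO1 to KO3. The KO libraries all exceeded the WT libraries, and KO1 was the highest. The logFC was 0.29 (SE 0.07), at an edgeR adjusted p of 0.0833 and, with 6 separate libraries, of 0.0364. Without KO1 it was 0.20, and without KO2 and KO3 it was 0.37. The alveolar type 2 list, genes of the surfactant-making epithelial cell, moved the same way: all 7 genes had every KO library above every WT library (20% of all genes did), and Sftpc, Sftpb and Sftpa1 were called higher (2.28% of all genes were called). Their sum was 20831 to 21764 CPM in WT, against 29554 to 31211 in KO. The part of that list in the Cxcl15 difference was not tested.

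Cxcl16, a membrane-bound ligand of CXCR6 that also takes up oxidised lipoprotein, was at 69.6, 74.8 and 70.5 CPM in WT, against 81.8, 90.8 and 87.4 CPM in KO. The genotypes did not overlap, and the logFC was 0.26 (SE 0.06), at an edgeR adjusted p of 0.0802 and of 0.021 with 6 separate libraries. Zmynd15 on the opposite strand covers 18.3% of the exon bases of Cxcl16, and whether counting used the strand is not given in the sources used here. Cx3cl1 (fractalkine), the membrane-bound ligand of CX3CR1 on monocytes and NK cells, was at 83.4, 81.6 and 87.9 CPM in WT, against 102.7, 88.4 and 88.4 CPM in KO. Its KO libraries were all above WT, but KO2 and KO3 only just, and the logFC of 0.18 (SE 0.08) had an edgeR adjusted p of 0.209. It was 0.065 without KO1, 0.28 without KO2 and KO3 and 0.088 with the offset for length and GC content. Both proteins are released from the cell by the proteases Adam10 and Adam17. Of a list of 3 proteases that cleave chemokines (Adam10, Adam17 and Dpp4), 0 were called (2.28% of all genes were). All 3 had every KO library below every WT library, as did 20.8% of all genes. Adam10 had a logFC of -0.24 (SE 0.04), at an edgeR adjusted p of 0.0579 and of 0.0125 with 6 separate libraries.

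Cxcl12, the stromal ligand of CXCR4 that retains haematopoietic cells in tissue, was at 260.9, 277.6 and 307.8 CPM in WT, against 277.7, 236.4 and 239.2 CPM in KO. KO1 lay inside the WT range and KO2 and KO3 below it, and the logFC was -0.13 (SE 0.10, edgeR adjusted p 0.486). It was -0.25 without KO1, -0.061 without WT3, -0.023 without KO2 and KO3 and -0.019 with the length and GC offset. Cxcl14, an epithelial ligand, was at 123.4, 89.7 and 102.2 CPM in WT, against 132.9, 122.2 and 121.7 CPM in KO, with WT1 inside the KO range. Its logFC of 0.28 (edgeR adjusted p 0.282) was 0.17 without WT2 and 0.088 with that offset. Cxcl17, a ligand of mucosal epithelium, was at 34.7, 35.9 and 30.04 CPM in WT, against 33.7, 50.3 and 49.8 CPM in KO. Only KO2 and KO3 exceeded the WT range, and the logFC was 0.33 (edgeR adjusted p 0.328). It was 0.58 without KO1, 0.0048 without KO2 and KO3 and 0.15 with the offset. With the squamous term the edgeR adjusted p was 0.0439. The club cell list, of airway secretory cells, summed to 27387 to 32233 CPM in WT and to 36772, 48814 and 48615 CPM in KO1 to KO3, and its part in the Cxcl17 values was not tested.

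**Figure D3:**
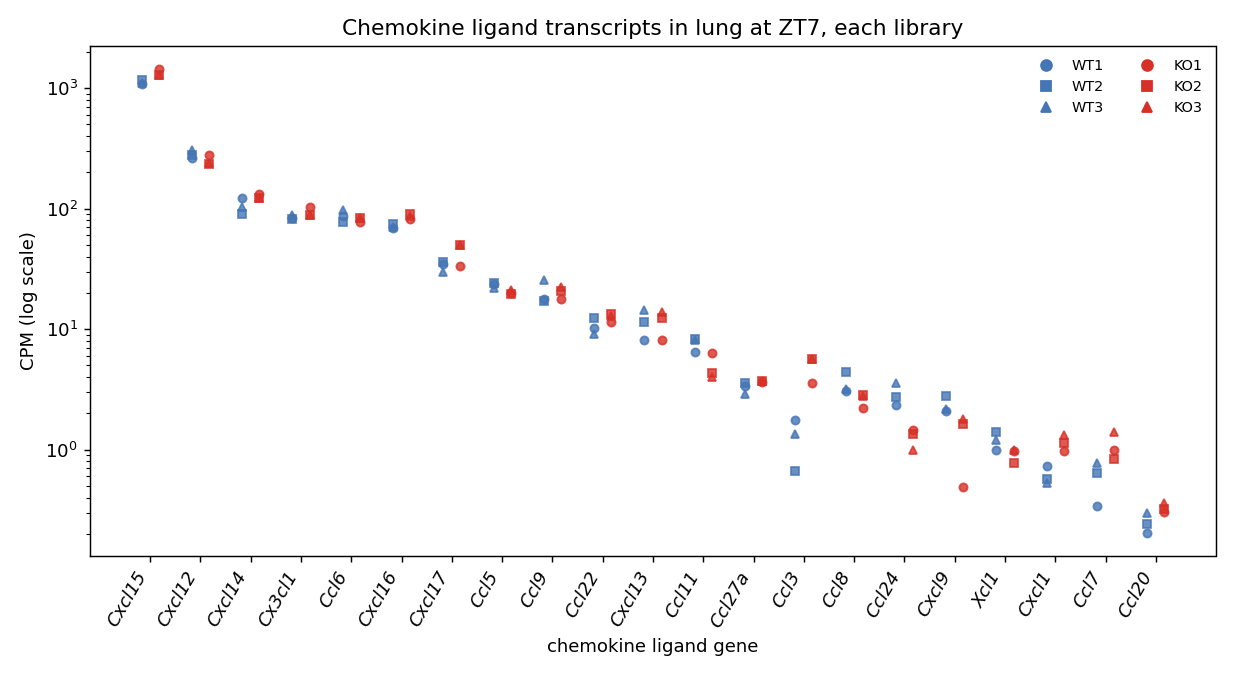
Level (vertical axis, CPM, log scale) of 21 chemokine ligand genes in each WT and KO library, marked by colour for genotype and by shape for replicate number. KO libraries of Ccl3 (3.55 to 5.69 CPM) lie above WT (0.67 to 1.76 CPM) and those of Ccl24 (0.993 to 1.44 CPM) below WT (2.36 to 3.55 CPM), while most abundant members differ little.

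Among the inflammatory CC ligands, Ccl3 (macrophage inflammatory protein 1 alpha) had the largest estimated difference of the family. Its counts were 129, 47 and 81 in WT and 224, 352 and 332 in KO, that is 1.76, 0.67 and 1.35 CPM against 3.55, 5.67 and 5.69 CPM. The groups did not overlap, and KO1 lay between WT and the other KO libraries. The fold change was 3.68, a logFC of 1.88 (SE 0.45), at an edgeR adjusted p of 0.0805 and of 0.0196 with 6 separate libraries. Over 17 alternatives the logFC was 1.49 to 2.20, the sign was kept in all 17 and 3 called it, with adjusted p values from 0.000847 to 0.194. Without KO2 and KO3 it was 1.49, with an adjusted p of 0.174.

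The immediate early list, genes such as Fos and Junb that respond within minutes to stimulation or handling, followed the same order of libraries as Ccl3. Its 13 genes summed to 1501, 1092 and 1424 CPM in WT1 to WT3, 2078 CPM in KO1 and 3847 and 3860 CPM in KO2 and KO3. All 13 were higher by estimate and 0 were called (2.28% of all genes were), or 7 with 6 separate libraries (against 18.9%). In 9 of them every KO library lay above every WT library, against 20% of all genes. The order was not particular to this list. A list of platelet genes followed it too, at 48.8, 32.7 and 37.9 CPM in WT1 to WT3 and 55.1, 69.8 and 71.3 CPM in KO1 to KO3. The liver genes did so apart from KO2 and KO3, which were nearly equal. The part of these lists in the Ccl3 difference was not tested. Ccl4, the neighbour and close relative of Ccl3, was at 0.929, 0.912 and 1.47 CPM in WT, against 1.33, 1.95 and 2.33 CPM in KO. The groups overlapped in WT3 and KO1, with a logFC of 0.66 (SE 0.33, edgeR adjusted p 0.266). It was 0.28 without KO2 and KO3 and 0.95 without KO1.

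**Figure D4:**
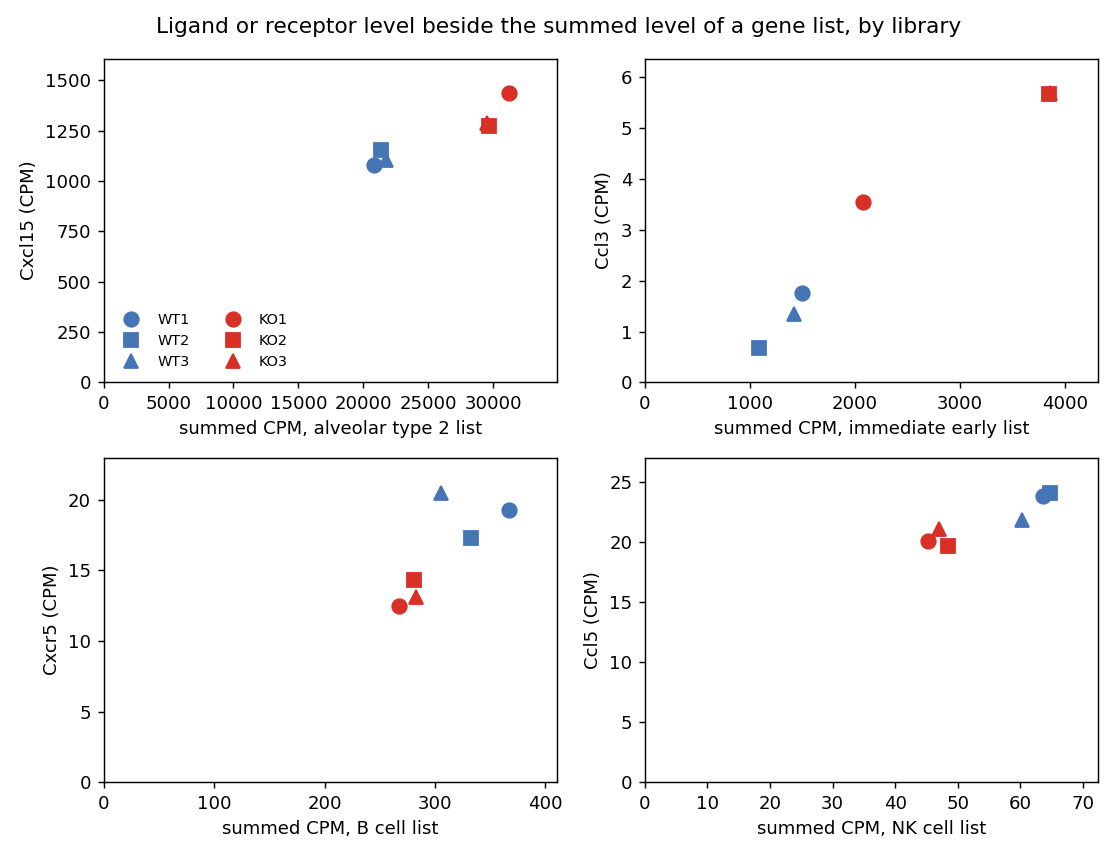
Level of Cxcl15, Ccl3, Cxcr5 and Ccl5 (vertical axes, CPM) beside the summed level of a gene list (horizontal axes, CPM) in each library, with colour for genotype and shape for replicate number. KO1 lies between WT and the other KO libraries in the Ccl3 panel (2078 CPM of immediate early genes and 3.55 CPM of Ccl3), and the genotypes are apart on both axes in all panels.

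The other ligands of this group were lower by estimate, at logFC between -0.19 and -0.02. Ccl5 (RANTES), made by T and NK cells, was at 23.8, 24.1 and 21.8 CPM in WT, against 20.1, 19.7 and 21.1 CPM in KO. WT3 and KO3 were close but did not overlap, and the logFC was -0.19 (SE 0.07, edgeR adjusted p 0.168), or -0.39 with the length and GC offset. The NK cell list summed to 60.3 to 64.7 CPM in WT, against 45.3 to 48.5 CPM in KO, all 6 of its genes were lower by estimate and Ncr1 was called (2.28% of all genes were). In 5 of the 6 every KO library lay below every WT library, against 20.8% of all genes. T cell genes summed to 43.1 to 59.7 CPM in WT, against 59.2 to 60.3 in KO. Of the 7 tested, 6 were higher and 1 lower by estimate. In 2 every KO library lay above every WT library (20% of all genes did), and in 0 below (20.8% did). Neither list's part in the Ccl5 values was tested. Ccl6, an abundant ligand of myeloid cells, was at 86.1, 77.9 and 96.7 CPM in WT, against 76.9, 83.8 and 84.0 CPM in KO (edgeR adjusted p 0.577). Ccl9, of the same type, was at 17.6, 17.2 and 25.5 CPM in WT, against 17.9, 20.7 and 22.4 CPM in KO (edgeR adjusted p 0.96). Both overlapped between genotypes. Alveolar macrophage genes summed to 254 to 309 CPM in WT, against 239 to 258 CPM in KO, and the 7 genes tested were divided, 3 higher and 4 lower by estimate. Mrc1 was called lower (2.28% of all genes were called), at a logFC of -0.56 (SE 0.08). Mrc1 and Ear2 had every KO library below every WT library and Krt79, at a logFC of 0.31 (SE 0.07), had every KO library above, against 20.8% and 20% of all genes.

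The neutrophil attractants of the CXCR2 group were low and divided by estimate. Cxcl1 (KC) had 54, 40 and 32 counts in WT, against 62, 71 and 77 in KO, that is 0.737, 0.57 and 0.533 CPM against 0.983, 1.14 and 1.32 CPM. The KO libraries all exceeded the WT libraries, with a logFC of 0.86 (SE 0.24), at an edgeR adjusted p of 0.102 and one of 0.0289 with 6 separate libraries. Cxcl2 had 10, 18 and 27 counts in WT, against 26, 57 and 44 in KO, overlapping in WT3 and KO1. Its logFC was 1.18 (SE 0.57, edgeR adjusted p 0.254). It was 0.57 without KO2 and KO3, 0.85 without WT1 and 1.69 without WT3, so 2-fold was not reached in every fit. Cxcl3, which holds the same NF-kB run in its promoter as these genes, had 12, 8 and 14 counts in WT, against 8, 9 and 12 in KO, and Cxcl5 had 31, 37 and 25 in WT and 19, 39 and 12 in KO. Both overlapped, with logFCs of -0.14 (SE 0.43) and -0.31 (SE 0.27). That of Cxcl3 was 0.14 without WT3 and 0.040 without KO1, and that of Cxcl5 was 0.034 without KO3. Their receptor Cxcr2 was at 6.42, 4.86 and 5.28 CPM in WT, against 5.69, 3.35 and 3.32 CPM in KO (edgeR adjusted p 0.546). Neutrophil genes summed to 80.1 to 115 CPM in WT, against 82.1 to 104 CPM in KO. Of the 7 tested, 6 were lower and 1 higher by estimate. In 2 every KO library lay below every WT library (20.8% of all genes did), and in 0 above (20% did).

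Both tested eotaxins, ligands of CCR3 that attract eosinophils, were lower in KO by estimate. Ccl24 (eotaxin-2), at chr5:135569937-135573049 on the minus strand, had 173, 193 and 213 counts in WT, against 91, 83 and 58 in KO, that is 2.36, 2.75 and 3.55 CPM against 1.44, 1.34 and 0.993 CPM. The groups did not overlap. The level was 2.20-fold lower in KO, a logFC of -1.14 (SE 0.24), at an edgeR adjusted p of 0.0659, the lowest among the members, and of 0.0175 with 6 separate libraries. Over 17 alternatives the logFC was -1.32 to -0.97, the sign was kept in all 17 and 3 called it, with adjusted p values from 0.000544 to 0.296. Ccl11 (eotaxin-1) was at 6.41, 8.31 and 8.14 CPM in WT, against 6.33, 4.32 and 3.97 CPM in KO. WT1 and KO1 almost met, and the logFC was -0.54 (SE 0.23, edgeR adjusted p 0.209), or -0.27 without KO2 and KO3 and -0.88 without KO1. Ccl26 had 3 counts over all libraries. Ccr3, the receptor, was at 0.183 to 0.205 CPM in WT, against 0.0951 to 0.21 CPM in KO (edgeR adjusted p 0.678).

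The monocyte chemoattractants, ligands of CCR2 and related receptors in 1 cluster on chromosome 11, also differed in sign. Ccl7 had 25, 45 and 47 counts in WT, against 63, 52 and 82 in KO, which did not overlap (0.341 to 0.783 against 0.838 to 1.4 CPM), with a logFC of 0.85 (SE 0.37, edgeR adjusted p 0.217). Ccl8 was at 3.07, 4.42 and 3.18 CPM in WT, against 2.20, 2.85 and 2.81 CPM in KO, apart in the other direction, with a logFC of -0.49 (SE 0.23, edgeR adjusted p 0.248), or -0.31 without WT2. Ccl2, the main CCR2 ligand, was at 0.71, 1.11 and 1.75 CPM in WT, against 1.21, 0.951 and 1.22 CPM in KO, inside the WT range, and Ccl12 overlapped as well. Ccr2 itself was at 43.1, 42.0 and 35.0 CPM in WT, against 32.2, 34.6 and 36.5 CPM in KO (edgeR adjusted p 0.248).

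The interferon-induced ligands of CXCR3, which draw activated T and NK cells, split in sign by estimate. Cxcl9 was at 2.10, 2.76 and 2.16 CPM in WT, against 0.492, 1.64 and 1.80 CPM in KO. All KO libraries were below WT, but KO1 far more so, with a logFC of -1.06 (SE 0.54, edgeR adjusted p 0.28), -0.45 without KO1 and -2.25 without KO2 and KO3. Cxcl10, its neighbour, was at 1.79, 2.02 and 1.98 CPM in WT, against 1.89, 3.14 and 2.95 CPM in KO, with a logFC of 0.36 (SE 0.24, edgeR adjusted p 0.398). KO1 lay inside the WT range, and without KO2 and KO3 the logFC was -0.034. Art3 on the opposite strand covers 5.91% of its exon bases. Ifng, their classical inducer, was at 0.273 to 0.527 CPM in WT, against 0.254 to 0.371 CPM in KO. Ccl17 and Ccl22 are made by dendritic cells for CCR4 on regulatory and type 2 T cells. Both were higher by estimate and both overlapped, at logFCs of 0.37 (SE 0.29) and 0.22 (SE 0.16). That of Ccl17 was 0.15 without WT3, 0.56 without KO1, 0.13 without KO2 and KO3 and 0.21 with the length and GC offset. Ccl22 was at 10.2, 12.5 and 9.14 CPM in WT, against 11.5, 13.3 and 12.8 CPM in KO, and its logFC was 0.34 without WT2, 0.12 without WT3 or without KO2 and KO3, and 0.087 with the length and GC offset.

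Of the lymphoid and mucosal ligands, 7 were tested, 3 higher and 4 lower by estimate. Only Ccl20 (higher) and Xcl1 (lower) kept their sign in all 17 alternatives. That of Ccl19, Cxcl13, Ccl28, Ccl25 and Ccl27a turned in at least 1. Cxcl13, which directs B cells into follicles through CXCR5, was at 8.06, 11.6 and 14.3 CPM in WT, against 8.12, 12.4 and 13.8 CPM in KO, spreading as widely within each genotype as between them (edgeR adjusted p 0.889). Xcl1, made by NK and T cells for the XCR1 of cross-presenting dendritic cells, was at 0.997, 1.41 and 1.20 CPM in WT, against 0.967, 0.774 and 0.993 CPM in KO, with a logFC of -0.37 (SE 0.21, edgeR adjusted p 0.326). WT1 and KO3 nearly met. Gm20743 on the opposite strand covers 18.7% of its exon bases, so its counts carry the same doubt as those of Cxcl16. Ccl20, the CCR6 ligand of mucosal epithelium, had 15, 17 and 18 counts in WT, against 19, 20 and 21 in KO. Ccl27a was at 3.39, 3.56 and 2.91 CPM in WT, against 3.65, 3.72 and 3.70 CPM in KO. Neither was called (edgeR adjusted p 0.442 and 0.504), and the logFC of Ccl27a became -0.031 under the offset for length and GC content. Ccl19, Ccl25 and Ccl28 overlapped between genotypes, and 2.74% of the exon bases of Ccl25 lie opposite Elavl1.

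Chemokine receptors, described beside their ligands from a list of 23, were mostly lower in KO by estimate. Of the 22 tested, 0 were called by edgeR (2.28% of all genes were) and 2 had an unadjusted p of at most 0.05 (27.3% did). By estimate 5 were higher and 17 lower, with a median logFC of -0.23, beside 0.02 over all genes. Every KO library was below every WT library for 6 of them (Ccr9, Cx3cr1, Cxcr3, Cxcr5, Cxcr6 and Xcr1), against 20.8% of all genes, and above for 0, against 20%. Cxcr5, the B cell receptor for Cxcl13, was at 19.3, 17.3 and 20.5 CPM in WT, against 12.5, 14.3 and 13.1 CPM in KO. It did not overlap, with a logFC of -0.53 (SE 0.11), at an edgeR adjusted p of 0.0632 and one of 0.0151 with 6 separate libraries, where no other receptor was called. B cell genes summed to 305 to 367 CPM in WT, against 268 to 283 CPM in KO. Of 10 tested, 0 were called (2.28% of all genes were), or 5 with 6 separate libraries (against 18.9%). Their part in the Cxcr5 values was not tested. Cxcr4, the receptor of Cxcl12, was at 67.7 to 75.0 CPM in WT, against 69.1 to 76.0 CPM in KO. Ccr7, the receptor of Ccl19 and the Ccl21 ligands, was at 18.1 to 22.8 and 15.7 to 20.6 CPM, and Cx3cr1 at 19.6 to 25 and 17.5 to 19.6 CPM.

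Regulators of the inflammatory ligands were taken from further lists. Of 12 NF-kB genes tested, 0 were called (2.28% of all genes were), or 1 with 6 separate libraries (against 18.9%). By estimate 7 were higher and 5 lower. In 2 every KO library lay above every WT library (20% of all genes did), and in 3 every KO library lay below (20.8% did). Rel, the c-Rel subunit, was at 10.4, 10.9 and 9.39 CPM in WT, against 5.18, 7.0 and 7.24 CPM in KO, a logFC of -0.73 (SE 0.17, edgeR adjusted p 0.0798). Of 8 tested cytokines that induce chemokines, 0 were called (2.28% of all genes were), and 7 were higher by estimate. Csf2, Il1b, Tnf and Ltb, 4 of the 8, had every KO library above every WT library, as did 20% of all genes. Csf2 had the lowest adjusted p of the 8, at 1.80, 2.17 and 1.75 CPM in WT, against 2.87, 3.18 and 3.07 CPM in KO, a logFC of 0.66 (SE 0.16), at an edgeR adjusted p of 0.0833 and of 0.0211 with 6 separate libraries. Il1b, an interleukin of activated macrophages, was at 15.1, 9.93 and 8.56 CPM in WT, against 15.3, 21.2 and 20.2 CPM in KO, with WT1 and KO1 nearly equal.

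The platelet chemokines Pf4 and Ppbp do not carry a family symbol and lie outside the members. Pf4 was at 19.5, 18.0 and 27.8 CPM in WT, against 21.0, 31.0 and 32.2 CPM in KO, and Ppbp at 26.9, 18.2 and 19.7 against 26.6, 39.1 and 39.8 CPM. Both overlapped through KO1. The 5 genes of the platelet list all had every KO library above every WT library, as did 20% of all genes. They summed to 32.7 to 48.8 CPM in WT, against 55.1 to 71.3 CPM in KO. Of these 5, 0 were called (2.28% of all genes were), or 3 with 6 separate libraries (against 18.9%).

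Position gave no common direction. Members lay in clusters, of which a pair on chromosome 11, chr11:82035571-82305690 and chr11:83525778-83664683, were 14.9 to 16.5 Mb from Zpbp2 on the same chromosome. Their 10 tested members were 4 higher and 6 lower by estimate, with a median logFC of -0.04. The signs of Ccl9, Ccl2 and Ccl12 turned in 5, 3 and 1 of the 17 alternatives. In the CXC cluster at chr5:90759360-90905938, Cxcl1, Cxcl2 and Cxcl15 were higher by estimate and Cxcl3 and Cxcl5, whose signs turned without 1 library, lower, and at chr8:94745590-94812036 Ccl17, Ccl22 and Cx3cl1 were all higher. Ccl3 and Ccl4 were higher by estimate and their neighbours Ccl5, Ccl6 and Ccl9 lower, Ccl9 with the turns in sign given above.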

How the data were processed

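Lung RNA of 3 WT and 3 KO mice was sequenced. The authors deposited raw counts per gene and library with no normalization; they trimmed reads with Trimmomatic 0.36, aligned them to mm10 with STAR 2.5.3a and counted them with HTSeq 0.6.0, with Picard 2.9.0 also named in the submitters' processing notes. The annotation release, read length and strand setting are not given in the sources used here. Exon lengths, gene types and coordinates were taken from GENCODE M21 on GRCm38, which holds 97.5% of the identifiers, and promoters from RefSeq.

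The whole table was fitted with edgeR 4.0.16 in R 4.3.3 (filterByExpr, TMM scaling, quasi-likelihood test of genotype, two-sided, Benjamini-Hochberg over all tested genes, with calls at an adjusted p of 0.05 or less), with the counts of KO2 and KO3 summed. A standard error is the log2 fold change divided by the square root of its F statistic. CPM used TMM-scaled totals of the 6 libraries. The procedure was tested on simulated data. Total counts of 59134950 to 71354388 set the precision. The study describes 3 mice of each genotype, so summing KO2 and KO3 departs from its stated design.

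A further chemokine receptor gene is not reported here. The members and gene lists were chosen with earlier results of these data known. Values in every library are given for members called in either fit, apart between genotypes, among the 12 highest by mean CPM, or with a ratio of highest to lowest library of at least 4 at a mean of 0.5 CPM or more, and for some further members of the same roles, chosen after their values were seen. There were 17 alternatives: separate libraries, a replicate block, other scaling (library size, RLE), DESeq2 1.42.0, the exact test, other filters, a squamous epithelium term, a length and GC offset, and leaving out libraries.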

Additional observations from a re-analysis of the deposited data

How the results depend on the processing

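The number of genes called, 426, was 3402 with the 6 libraries kept separate, 3919 with DESeq2, 2232 with the squamous epithelium term, 937 where every library had to reach 10 counts, 209 with the exact test and 4 with the length and GC offset. With library size alone it was 306. Leaving out 1 library gave 0 to 418 calls (0 without WT1, WT2 or WT3, and 17 without KO1), and 0 without KO2 and KO3. Chemokine ligand genes called, 0 as reported, were 5 with separate libraries (Ccl3, Ccl24, Cxcl1, Cxcl15 and Cxcl16), 4 with DESeq2 (Ccl3, Ccl24, Cxcl15 and Cxcl16) and 4 with the squamous term (Ccl3, Ccl24, Cxcl16 and Cxcl17), and 0 in every fit that left out a library. Receptors called, 0 as reported, were 1 (Cxcr5) with separate libraries, DESeq2 and the squamous term. The median log2 fold change of the ligands, 0.13, was 0.016 with the length and GC offset and -0.0090 without KO2 and KO3, and 0.08 to 0.20 with 1 library left out. That of the receptors, -0.23, was -0.28 with library size alone, -0.18 without KO2 and KO3, and -0.26 to -0.21 with 1 library left out. The cause of these shifts was not tested.

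WT and KO libraries share replicate numbers. Deviations of same-numbered libraries from their group means correlated at -0.469, 0.544 and -0.635, and WT3 correlated best with KO1 (0.724), so the numbers did not pair the samples. With the replicate block on 6 separate libraries 1157 genes and 1 ligand gene, Cxcl16, were called.

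Of 713 combinations of a gene (the 32 tested ligands and 10 receptors) and an alternative, 664 kept their sign and side of the threshold, 17 passed it, 0 lost it and 32 turned in sign, all at adjusted p above the threshold. The turns fell on 11 ligands and 3 receptors. With separate libraries the log2 fold changes of Ccl9, Ccl19 and Cxcl13 were 0.016, 0.044 and 0.015, and with the block 0.034, 0.021 and 0.019. That of Ccl19 was 0.00093 with the squamous term. The length and GC offset gave -0.031 for Ccl27a, 0.024 for Ccl28 and -0.059 for Cxcr4. Without KO2 and KO3 the values were -0.034 for Cxcl10, -0.18 for Ccl25, 0.28 for Ccl28, -0.16 for Ccl12, 0.022 for Ccl2, 0.044 for Cxcr2 and 0.022 for Ccr7. With 1 library left out, Ccl9 was at -0.13 to 0.18 (above 0 without WT3, KO1 or KO2), Ccl19 at -0.13 to 0.21 (the same 3 libraries), Cxcl13 at -0.28 to 0.21 (WT3 or KO1), Cxcl3 at -0.37 to 0.14 (WT3 or KO1), Cxcl5 at -0.84 to 0.034 (KO3), Ccl28 at -0.43 to 0.29 (WT1) and Ccl2 at -0.32 to 0.33 (WT3 or KO2), while Cxcr4 was at -0.014 to 0.11, below 0 without KO1. With 1 KO sample left, it was assumed to vary like WT. Counting error weighs most on members with few counts. Cxcl3, Cxcl5, Ccl20 and Ccl19 had under 50 counts in every library, with SEs of 0.43, 0.27, 0.28 and 0.26. The part of depth in these was not tested.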
